A study of Mus musculus with 25 samples.

Results

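The core spliceosome genes described here are 40 mouse genes that encode proteins of the U1 and U5 small nuclear ribonucleoproteins (snRNPs), the U4/U6.U5 tri-snRNP, the PRP19 complex and its partners, the factors of catalytic activation and of the second splicing step, and Sf1, the first protein to bind the branch point. They were taken as a list of gene symbols from textbook membership and matched to the gene names of the deposited intron tables. All 40 of the 17591 genes listed were found, with 598 of the 163315 introns that carry values. The list was not chosen by measured values, but it was chosen with earlier results of these data known.

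The series followed mouse models of triple-negative breast cancer under H3B-8800, a drug taken by mouth whose target is the SF3B complex, the part of the U2 snRNP that holds the branch point. Tumors of the models T11 and 2208L were placed in the mammary gland of female Balb/c mice and those of PyMT-M and AT3 in female C57BL/6 mice, all 4 to 5 weeks old at transplant, and the randomized mice received H3B-8800 or vehicle daily until collection. RNA of whole tumors, kept in RNAlater, was selected for poly(A) tails and sequenced as stranded libraries. Of the 25 libraries, PyMT-M has 4 per treatment, T11 and 2208L have 3 per treatment, and AT3 has 3 with vehicle and 2 with H3B-8800. Responder is the label of the PyMT-M and 2208L samples and nonresponder that of the T11 and AT3 samples. Each library is a separate transplanted tumor of a mouse model with its own host stroma, dose and number of days are not given in the labels, and no batch is named.

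Splicing removes introns from pre-mRNA in 2 chemical steps carried out by the spliceosome. The U1 snRNP pairs with the 5′ splice site while SF1 and then the U2 snRNP mark the branch point. The tri-snRNP brings in U4, U5 and U6, the helicases of U5 and their partners rearrange these RNAs, and the PRP19 complex joins to stabilize the active center. Dedicated helicases then drive the first step, the second step and the release of the mRNA. The transcripts of these genes are themselves spliced, so that the libraries give both the amount of each spliced mRNA and the share of reads left in its introns.

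Reads that overlap an intron but do not lie inside it were taken as spliced, and a gene's level is its spliced reads summed over its introns, as CPM, the edgeR unit of reads relative to the library total, after scaling between libraries by the trimmed mean of M-values. All 40 genes passed the filter on low counts, as did 13001 genes in all. Spliced reads came to between 9820825 and 19700955 per library, and reads inside introns made up 7.9% to 27.8% of the reads that overlap introns. Changes in level are log2 values with the standard error and the Benjamini-Hochberg adjusted p of edgeR's quasi-likelihood test over all genes tested. In T11 the retention of introns ran opposite to the other models: it was higher in the libraries labelled vehicle. These are called the T11 libraries labelled H3B-8800 and labelled vehicle throughout, and no direction of a drug effect is drawn from them.

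The tumors differed in the cells they held. Summed over the 7 epithelial markers measured of 8 listed, the level was 3012 to 7077 CPM in PyMT-M and 3444 to 4885 CPM in 2208L, against 179 to 418 CPM in AT3 and 101 to 225 CPM in T11. Skeletal muscle transcripts summed to 6081 CPM in T11 labelled vehicle replicate 3, 4040 CPM in 2208L vehicle replicate 1, 686 CPM in T11 labelled H3B-8800 replicate 2, and 329 and 233 CPM in PyMT-M H3B-8800 replicates 1 and 2, and the other libraries had 2.7 to 36.6 CPM. B cell transcripts reached 217 CPM in T11 labelled H3B-8800 replicate 2 and 72.1 CPM in AT3 vehicle replicate 2. These 6 libraries were also left out together, as an alternative added after the data were seen. In whole tumors, fewer cells of a type and less RNA per cell cannot be told apart.

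Introns of these genes held more reads under H3B-8800 in PyMT-M, AT3 and 2208L. The sequences below are short introns of Xab2, Snrnp200 and Bcas2, chosen after their values were seen because they show this within a length that can be read whole, followed by 1 intron each of Snrnp200 and Snrnp70 that stayed spliced. They were read from the exons of annotated retained-intron or other transcripts of GENCODE M21 (GRCm38, the same assembly as mm10) that run across them, and are printed 5′ to 3′ on the coding strand. Because of these exons they count as introns that hold an annotated exon, and they are not among the 438 introns pooled below. Capitals mark the first 6 bases, which hold the 5′ splice site, and the last 3 bases, the 3′ splice site. Of the 158 introns of up to 300 bases in the 40 genes, 16 were found covered in this way, and all 16 begin with GT and end with AG. Introns on 1 chromosome were not searched for such exons.
Xab2 intron 8: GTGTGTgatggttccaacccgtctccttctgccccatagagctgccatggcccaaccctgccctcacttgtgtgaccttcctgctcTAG
Xab2 intron 9: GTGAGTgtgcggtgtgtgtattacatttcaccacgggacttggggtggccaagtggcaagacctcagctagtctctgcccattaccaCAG
Xab2 intron 10: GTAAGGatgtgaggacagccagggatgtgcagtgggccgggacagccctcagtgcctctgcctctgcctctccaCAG
Snrnp200 intron 40: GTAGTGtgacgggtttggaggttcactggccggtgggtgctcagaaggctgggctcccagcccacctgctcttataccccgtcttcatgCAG
Snrnp200 intron 41: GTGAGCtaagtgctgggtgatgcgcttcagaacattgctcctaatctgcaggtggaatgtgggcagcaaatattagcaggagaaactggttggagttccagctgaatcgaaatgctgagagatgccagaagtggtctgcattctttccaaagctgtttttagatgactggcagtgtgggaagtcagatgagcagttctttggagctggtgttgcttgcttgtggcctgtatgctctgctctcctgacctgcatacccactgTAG
Bcas2 intron 1: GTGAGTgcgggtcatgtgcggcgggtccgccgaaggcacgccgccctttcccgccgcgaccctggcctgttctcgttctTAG
Snrnp200 intron 15: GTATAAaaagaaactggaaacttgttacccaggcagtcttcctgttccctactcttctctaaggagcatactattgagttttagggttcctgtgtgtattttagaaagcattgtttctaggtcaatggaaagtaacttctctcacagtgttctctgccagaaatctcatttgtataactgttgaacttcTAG
Snrnp70 intron 3: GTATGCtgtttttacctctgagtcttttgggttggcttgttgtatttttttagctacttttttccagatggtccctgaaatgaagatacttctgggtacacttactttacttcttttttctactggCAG

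Introns are numbered from the 5′ end of the transcript, and the percentages that follow are the reads inside an intron of all reads that overlap it. Xab2, whose product is a partner of the PRP19 complex and of transcription-coupled repair, has introns 8 (chr8:3613710-3613798, minus strand), 9 (chr8:3613500-3613589) and 10 (chr8:3613291-3613367) of 89, 90 and 77 bases. Intron 8 held 79.5%, 62.3%, 62.6% and 65.8% of reads in the 4 PyMT-M H3B-8800 libraries, against 0%, 0%, 4.12% and 0% with vehicle. The groups did not overlap, and reads inside the intron per spliced read of the gene rose by 6.87 ± 0.88 on the log2 scale (adjusted p = 9.11e-08). It also rose in 2208L, where H3B-8800 libraries held 21.7%, 25% and 20.6% and vehicle libraries 0.877% on average (4.46 ± 1.08, adjusted p = 0.00359), while AT3 with 24.5% and 5.63% did not pass (adjusted p = 0.13). Intron 9 averaged 62.5% against 7.74% in PyMT-M (adjusted p = 2.45e-06) and 15.4% against 2.18% in 2208L (adjusted p = 0.0251). Intron 10 was already at 30.6% in PyMT-M vehicle libraries and averaged 72.5% with the drug (adjusted p = 3.12e-05).

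Snrnp200 encodes the U5 helicase that unwinds U4 from U6. Its introns 40 (chr2:127237967-127238058, plus strand, 92 bases) and 41 (chr2:127238236-127238499, 264 bases) lie next to each other near the 3′ end of the gene. Intron 41 held 64.2%, 47.6%, 34.8% and 52.7% in PyMT-M H3B-8800 libraries and 5.06%, 2.05%, 8.47% and 6.06% with vehicle (log2 change 3.62 ± 0.57, adjusted p = 2.42e-06). It rose in AT3 too, from 4.08% on average to 19.6% and 24.9% (adjusted p = 0.00282), and in 2208L from 1.53% to 10.1% on average (adjusted p = 0.00968). Intron 40 averaged 21.7% against 1.55% in PyMT-M (adjusted p = 0.000358). Bcas2 encodes a small subunit of the PRP19 complex, and its intron 1 (chr3:103171866-103171947, plus strand, 82 bases) rose in all 3 models, from 7.95% to 26.7% on average in PyMT-M (adjusted p = 0.000498), 4.94% to 15.2% in AT3 (adjusted p = 0.0444) and 5.41% to 22.7% in 2208L (adjusted p = 0.0051).

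The introns that stayed spliced were near the floor in every group. Intron 15 of Snrnp200 (chr2:127221939-127222130, 192 bases) had 2 of 234 reads inside in the PyMT-M H3B-8800 libraries and 0 of 221 with vehicle. Intron 3 of Snrnp70 (chr7:45392134-45392262, minus strand, 129 bases) had 8 of 2712 reads inside in the PyMT-M H3B-8800 libraries and 2 of 2270 with vehicle. Both were too low for the intron test.

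Over all introns without an annotated exon, 438 in 39 of the 40 genes, the pooled share of reads inside introns was higher with H3B-8800 in every library of PyMT-M, AT3 and 2208L than in the vehicle libraries of that model. Bud31 has no such intron. This description uses every intron without an annotated exon, with no filter on reads. With the 160 introns that hold one added, the AT3 groups overlapped, as given below. PyMT-M vehicle libraries held 4.58%, 3.21%, 4.96% and 6.23% and H3B-8800 libraries 25.7%, 20.05%, 19.2% and 19.8%. The means were 4.74% ± 1.24 (SD, n = 4) and 21.2% ± 3.03 (SD, n = 4), and the 2-sided exact permutation p of 0.0286 is the smallest that 4 against 4 libraries allow.

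In AT3 the share was 2.85%, 5.94% and 3.23% with vehicle and 7.49% and 9.66% with H3B-8800, with a 2-sided exact permutation p of 0.2 where the smallest possible is 0.1. The 2208L vehicle libraries held 2.02%, 3.60% and 3.38% and the H3B-8800 libraries 6.87%, 5.97% and 6.01%, with an exact p of 0.1, the smallest that 3 against 3 libraries allow. T11 libraries labelled vehicle held 4.08%, 7.96% and 5.13% and those labelled H3B-8800 2.92%, 3.18% and 4.22%, ranges that overlap (exact p = 0.2). The designs of AT3, 2208L and T11 cannot reach an exact p under 0.05. For the 438 introns without an annotated exon, the 2 groups were separate in all models but T11. Without the 19 introns of Dhx8, an alternative chosen after seeing the data since its spliced reads are in doubt, the means were 5.26% ± 1.65 and 21% ± 2.93 in PyMT-M and 3.96% ± 1.68 and 9.23% ± 2.71 in AT3. The values that follow also include introns that hold an annotated exon. Over all their introns, the 40 genes held 8.15% to 14.7% with vehicle and 13.4% and 16.8% with H3B-8800 in AT3. These ranges overlap (2-sided exact permutation p = 0.3). Over all introns of all genes, the share in AT3 was 9.63% to 15.9% with vehicle and 14.2% and 20.4% with H3B-8800. In 2208L it was 7.90% to 10.4% with vehicle and 13.3% to 14.9% with H3B-8800. In PyMT-M this share over all genes was 10.5% to 20.001% with vehicle and 17.8% to 27.8% with H3B-8800. These PyMT-M ranges overlap, since vehicle replicate 4 lay above H3B-8800 replicate 3.

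**Figure D1:**
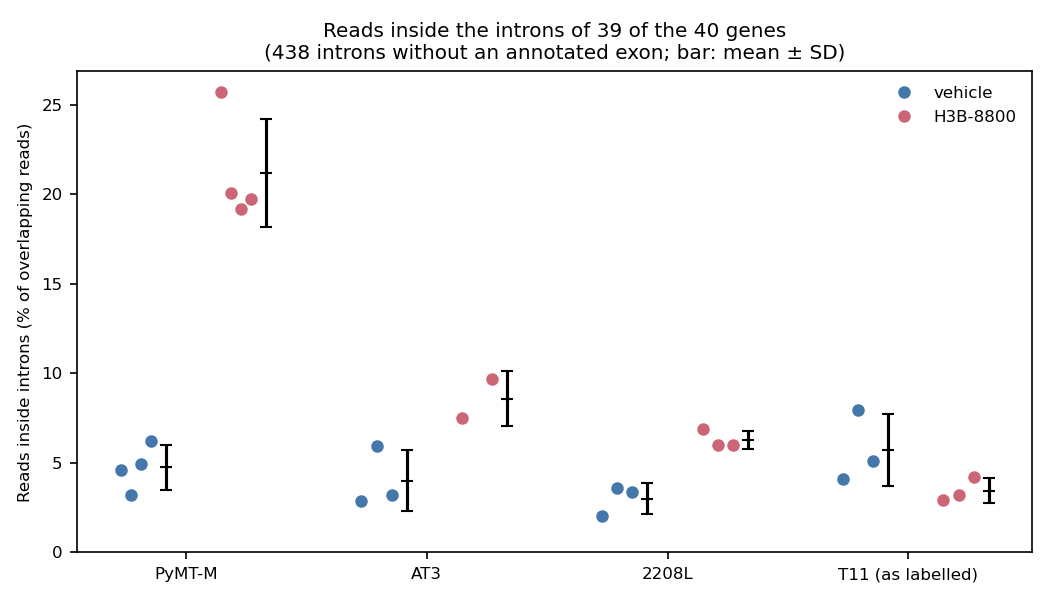
Percent of reads inside 438 introns without an annotated exon, pooled over 39 of the 40 genes, for each library (points) with the mean and SD of each group, by model and treatment. PyMT-M H3B-8800 libraries sit between 19.2% and 25.7%, above the vehicle libraries at 3.21% to 6.23%.

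Each functional group of genes had a higher share with H3B-8800 in PyMT-M. The share went from 6.65% ± 1.67 to 31.4% ± 4.63 (SD, n = 4 each) in the U4/U6 and tri-snRNP genes and from 3.93% ± 1.06 to 23.5% ± 4.60 in the genes of the second step and release. The latter include Dhx8, whose reads in some vehicle libraries are raised as described below, and without it the values were 7.36% ± 2.82 and 21.7% ± 3.96. It went from 6.50% ± 0.942 to 21.4% ± 2.94 in the U1 genes, from 4.73% ± 1.76 to 18.5% ± 2.70 in the PRP19 complex and partners, and from 4.18% ± 1.38 to 16.3% ± 2.18 in the U5 genes. The genes of catalytic activation stood at 6.99% ± 3.54 and 20.8% ± 2.99. Sf1 stood at 1.66% ± 0.854 with vehicle and 17.5% ± 4.17 with the drug. Library ranges did not overlap in any of these groups, and none of the group values was tested. Sart3, the U4/U6 recycling factor, had the highest share of any gene with the drug, 66.1% ± 3.31 against 14.2% ± 4.48, followed by Xab2 with 59.7% ± 3.59 against 7.90% ± 4.18. Snw1, a PRP19 partner also known as a nuclear receptor coactivator, stood at 5.33% ± 2.82 with vehicle and 7.29% ± 0.404 with the drug, and Cwc27, a cyclophilin of the activated complex, at 10.8% ± 9.21 and 10.2% ± 1.98.

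The share was higher with H3B-8800 at all lengths in PyMT-M, and its highest value there was not in the longest introns. In PyMT-M the 66 introns of up to 120 bases went from 0.969% ± 0.35 with vehicle to 8.56% ± 1.75 with H3B-8800. The 141 introns of 301 to 1000 bases went from 3.85% ± 0.784 to 22.4% ± 3.61, the 129 introns of 1001 to 3000 bases from 7.98% ± 1.74 to 31.1% ± 3.33, and the 39 introns over 3000 bases from 12.5% ± 5.76 to 25.8% ± 4.37. The shortest class in AT3 went from 0.983% ± 0.451 (n = 3) to 3.29% ± 0.0971 (n = 2), and in 2208L from 0.620% ± 0.0822 to 1.71% ± 0.27 (n = 3 each). In introns over 3000 bases, AT3 vehicle and H3B-8800 libraries overlapped, at 8.28% to 16.4% and 10.1% to 14.4%.

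Of the 598 introns, 288 had enough reads for the intron test, which compares reads inside an intron per spliced read of its gene. Of the 310 left out, 309 had a mean under 5 reads inside, and 4 had no read inside in any library. Because the filter takes the mean over all libraries, an intron can pass it through the group where it is high, so the counts that follow are read only beside those of all introns tested. In PyMT-M 193 of the 288 rose and 2 fell, 67% higher, against 54.7% higher and 5.68% lower among 52042 introns tested. AT3 had 66 that rose and 0 that fell, 22.9% against 19.4% higher and 0.319% lower among all introns. 2208L had 69 that rose and 0 that fell, 24% against 21% higher and 0.536% lower. The shares in AT3 and 2208L were close to those of introns in general. Between T11 groups, 49 were lower and 3 higher in the libraries labelled H3B-8800, 17% lower against 19.6% lower and 0.763% higher. Without AT3 H3B-8800 replicate 2 the AT3 count was 15, and without 2208L vehicle replicate 1 the 2208L count was 26. Leaving out the 6 libraries with muscle or B cell transcripts gave 13 in 2208L and 15 in T11.

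In all 3 models, 40 introns of 22 genes rose, 22 of them without an annotated exon, in 15 genes. Of all 52042 introns tested, 10.7% did so. All 40 had negative log2 changes in T11, and 24 of them, in 14 genes, passed the test there. Of the 5545 introns of any gene that rose in all 3 models, 99.5% were negative in T11 and 74.2% passed there. No intron fell in more than 1 of the 3 models. All 8 tested introns of Dhx8 rose in PyMT-M, where the doubtful spliced reads of its vehicle libraries enter the ratio. Xab2 had 10 of 10 tested introns that rose in PyMT-M, 4 in AT3 and 5 in 2208L. Sart1, a tri-snRNP protein that bridges it to the assembling spliceosome, had 9 of 9 in PyMT-M. All 6 tested introns of Aqr, the helicase that sits on the intron, and all 5 of Snrpa, the RNA-binding A protein of U1, rose in PyMT-M. None of the 4 tested introns of Snrpc, the C protein of U1, rose there. These counts by gene cover only introns that passed the read filter, and Aqr alone has 22 introns without an annotated exon. Of all introns tested, 54.7% rose in PyMT-M, 19.4% in AT3 and 21% in 2208L. No difference of the drug effect on an intron passed between PyMT-M and AT3 (edgeR, 0 introns, 0.00192% of all introns in either direction, 43 at an unadjusted p under 0.05, limma 1 intron) or between PyMT-M and 2208L (edgeR, 0 introns, 0.115% of all introns, 49 unadjusted, limma 0).

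Of the introns without an annotated exon that passed in all 3 models, the 10 with the highest mean log2 change are given here. Among them are Xab2 intron 4 (chr8:3616385-3618054, minus strand, 1670 bases), with the highest change, and Sart1 intron 16 (chr19:5381117-5381209, minus strand, 93 bases), the shortest. Xab2 intron 4 held 94.7%, 86.5%, 88.1% and 90.6% of reads in PyMT-M H3B-8800 libraries and 0%, 5.56%, 10% and 9.09% with vehicle. In AT3 it held 20% and 55.8% against 0%, 6.9% and 0%, and in 2208L 20%, 34.6% and 50% against 0 of 84 reads, which allows up to 3.57%. It passed in PyMT-M (log2 change 7.82 ± 0.91, adjusted p = 3.29e-08), AT3 (5.90 ± 1.16, adjusted p = 0.000881) and 2208L (adjusted p = 0.00384). No group overlapped in these 3 models. T11 libraries labelled vehicle held 5%, 38.7% and 47.9%, and those labelled H3B-8800 0%, 0% and 2.5%.

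Sart1 intron 16 held 60.1%, 40.4%, 39.1% and 43.2% in PyMT-M H3B-8800 libraries and 1.28%, 1.1%, 0.719% and 1.2% with vehicle (5.64 ± 0.69, adjusted p = 3.74e-08). AT3 libraries had 10.6% and 15.6% against 0.478%, 2.87% and 0.813% (3.45 ± 0.77, adjusted p = 0.00216). 2208L libraries had 17.6%, 9.7% and 9.46% against 0%, 0.746% and 0% (5.55 ± 1.00, adjusted p = 0.000225). Every H3B-8800 library lay above every vehicle library of its model. Prpf4b encodes a kinase of the tri-snRNP, and its last intron, 14 (chr13:34900451-34901392, plus strand, 942 bases), held 80.3%, 68.8%, 67.3% and 73.4% in PyMT-M H3B-8800 libraries and 16.7%, 3.91%, 8.33% and 8.2% with vehicle (4.24 ± 0.47, adjusted p = 7.36e-09). In AT3 it held 32.8% and 64.2% against 12.5%, 6.76% and 11.7% (3.34 ± 0.55, adjusted p = 0.000102). In 2208L it held 60.6%, 50.3% and 61% against 2.44%, 9.09% and 8.64% (4.08 ± 0.56, adjusted p = 1.03e-05). The calls for Prpf4b intron 14 and Sart1 intron 16 held in all 3 models when any 1 library was left out.

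Sart3 intron 11 (chr5:113751313-113752213, minus strand, 901 bases) held 77.7%, 91.2%, 90.5% and 89.4% in PyMT-M H3B-8800 libraries and 21.3%, 17.8%, 5.71% and 9.09% with vehicle (4.71 ± 0.56, adjusted p = 2.6e-08). Usp39, whose product is a member of the ubiquitin protease family found in the tri-snRNP, had 51.7%, 29.9%, 35.7% and 28.4% in its intron 8 (chr6:72328707-72329449, minus strand, 743 bases) and 2.7%, 0%, 0% and 0% with vehicle (5.92 ± 1.12, adjusted p = 3.97e-05). Prpf8, the central U5 scaffold, had 68.5%, 30%, 44.2% and 47.2% in its intron 1 (chr11:75487192-75487624, plus strand, 433 bases) and 5.8%, 0%, 2.33% and 8% with vehicle (4.85 ± 0.92, adjusted p = 4.54e-05). None of these groups overlapped. Prpf19 intron 5 (chr19:10900399-10900689, plus strand, 291 bases), in the gene of the ubiquitin ligase that names its complex, ran from 19.4% to 28.4% against 0% to 4.14% (3.79 ± 0.65, adjusted p = 9.74e-06). Dhx16 intron 1 (chr17:35880119-35881277, plus strand, 1159 bases) ran from 37.5% to 58% against 0%, 0%, 0% and 40%, so that 1 vehicle library overlapped (4.92 ± 1.05, adjusted p = 0.000189). Xab2 intron 7 (chr8:3613951-3614244, minus strand, 294 bases) ran from 77% to 81.2% against 0% to 11.8% (5.44 ± 0.82, adjusted p = 1.28e-06). Prpf4 intron 8 (chr4:62416711-62417845, plus strand, 1135 bases) held 60%, 60%, 37.8% and 60.3% against 3.17%, 0%, 0% and 0% (adjusted p = 2.83e-06). All these introns also passed in AT3 and 2208L, though 1 H3B-8800 library of 2208L had 0% in Dhx16 intron 1 and in Usp39 intron 8, as the vehicle libraries did. In AT3 the calls for Prpf8 1, Dhx16 1, Prpf19 5, Sart3 11, Usp39 8, Xab2 7 and Xab2 4 were lost without H3B-8800 replicate 2. The AT3 call for Prpf8 1 was also lost without vehicle replicate 1, and that for Prpf19 5 without vehicle replicate 1 or 3. In 2208L the call for Dhx16 1 was lost without any vehicle library or without H3B-8800 replicate 1, and that for Prpf8 1 without vehicle replicate 1 or H3B-8800 replicate 1. Those for Prpf4 8 and Usp39 8 were lost without 2208L vehicle replicate 1, and that for Prpf19 5 without H3B-8800 replicate 1. Without the 6 libraries with muscle or B cell transcripts, the calls lost in AT3 included Prpf8 1 and Dhx16 1. Those lost in 2208L included Prpf8 1, Dhx16 1, Prpf19 5, Prpf4 8 and Usp39 8.

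**Figure D2:**
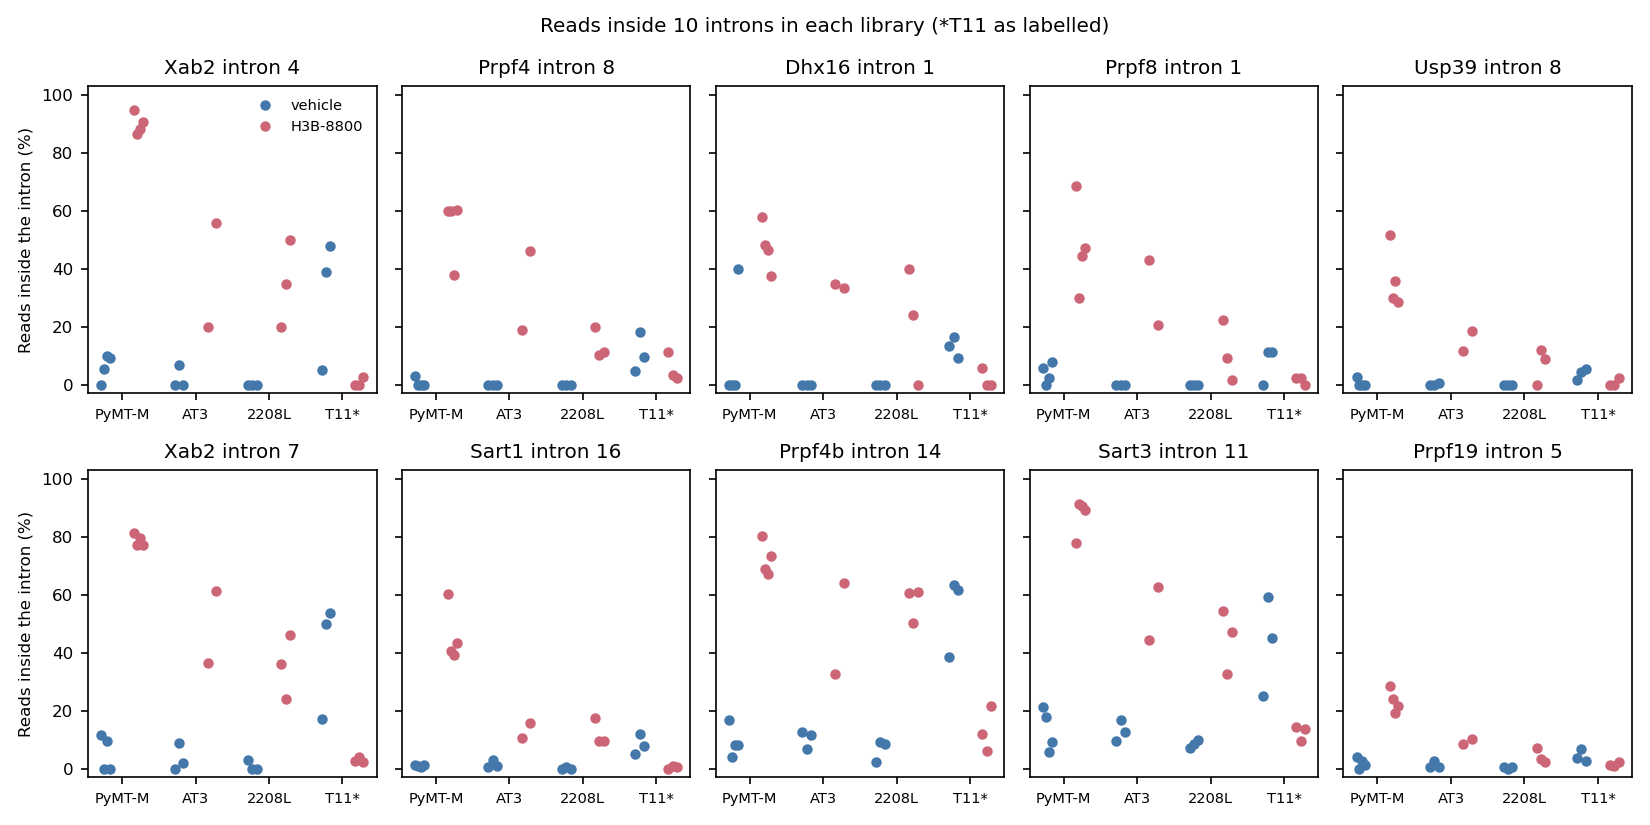
Percent of reads inside 10 introns without an annotated exon, for each library (points), by model and treatment. Xab2 intron 4 reaches 86.5% to 94.7% in PyMT-M H3B-8800 libraries, and Prpf19 intron 5 has the smallest share of the 10 there, 19.4% to 28.4%.

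The 2 introns that fell in PyMT-M, Prpf38b intron 4 and Cwc27 intron 10, each hold an annotated exon. Cwc27 intron 10, of 71979 bases, held 13%, 32.8%, 17.9% and 75.9% of reads with vehicle and 14.8% ± 7.13 (SD, n = 4) with H3B-8800 (-2.24 ± 0.70, adjusted p = 0.00609), so that 1 vehicle library stood far above the others. Intron 4 of Prpf38b, which encodes a tri-snRNP associated protein (chr3:108905335-108907786, minus strand, 2452 bases), holds an exon that transcripts annotated for nonsense-mediated decay include. Intron 12 of Prpf4b holds an exon of the same kind. Both exons are printed to show what the reads inside these introns can hold, in lower case because no part of them was measured apart from its intron.
Prpf38b exon in intron 4: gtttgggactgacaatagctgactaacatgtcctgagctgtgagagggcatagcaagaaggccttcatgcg
Prpf4b exon in intron 12: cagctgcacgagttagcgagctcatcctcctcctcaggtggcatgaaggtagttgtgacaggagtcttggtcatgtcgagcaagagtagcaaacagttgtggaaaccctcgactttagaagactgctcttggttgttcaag

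The Prpf38b exon lies at chr3:108905918-108905988 and the Prpf4b exon at chr13:34899315-34899455. Prpf38b intron 4 held 85.1%, 73.3%, 88.6% and 82.9% of reads in PyMT-M vehicle libraries and 62.7%, 69.2%, 59.4% and 60.6% with H3B-8800, with no overlap (log2 change -1.47 ± 0.35, adjusted p = 0.000622). The mean was 80.8% with vehicle and 72.8% with H3B-8800 in AT3 (adjusted p = 0.244), and its values were 60.7% with vehicle and 64.2% with H3B-8800 in 2208L (adjusted p = 0.901). It was 74.3% in T11 libraries labelled H3B-8800 against 54.1% in those labelled vehicle (1.29 ± 0.41, adjusted p = 0.0209). Prpf4b intron 12 (chr13:34899224-34899830) averaged 42.3% with vehicle and 28.0% with H3B-8800 in PyMT-M (adjusted p = 0.0759), 48.5% and 33.4% in AT3, and 28.6% and 18.2% in 2208L, and passed in the mean over the 3 models (-0.93 ± 0.33, adjusted p = 0.0149). Snrnp70 intron 7 (chr7:45380819-45383803, minus strand, 2985 bases) also holds an exon of a transcript annotated for nonsense-mediated decay. It held 91.8% ± 1.75 of reads with vehicle and 88.1% ± 0.587 with H3B-8800 in PyMT-M (n = 4 each, adjusted p = 0.218). In T11 it averaged 78.5% ± 1.4 in libraries labelled H3B-8800, against 54.5% ± 13.6 for the vehicle label (n = 3 each, 1.42 ± 0.34, adjusted p = 0.00268). The introns above were chosen after their values were seen, from 10 found with such an exon, with introns on 1 chromosome not searched. In the others the PyMT-M mean was higher with H3B-8800. It went from 36.2% to 80.7% in Prpf3 intron 3 and 30.9% to 61.6% in Sf1 intron 1, without overlap. Prpf31 intron 1 went from 2.51% to 27.7% and Snrpa intron 1 from 7.08% to 31.95%, also without overlap. Libraries of the 2 treatments overlapped in Prpf38b intron 1, Prpf4b intron 7 and Snrnp70 intron 1.

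A minority of the 40 genes changed in level with the drug in each model. In PyMT-M 4 genes rose and 9 fell, 10.2% and 14.6% being the shares of all 13001 genes that rose and fell. The 9 include Dhx8, whose spliced reads are in doubt as described below and whose fall is not read as a change. The members' median log2 change was -0.07 against 0.02 for all genes. In AT3 0 rose and 1 fell, with 0.123% and 0.177% of all genes, and 10 members had an unadjusted p under 0.05. The members' median there was 0.18 against 0 for all genes, and 31 of the 40 log2 changes were positive. 2208L had 1 that rose and 3 that fell, with 4.67% and 5.67% of all genes and a median of 0.01 against 0. T11 libraries labelled H3B-8800 had 1 higher and 10 lower than those labelled vehicle, with 6.66% and 5.07% of all genes and a median of -0.31 against -0.04. Without the 6 libraries with muscle or B cell transcripts, 6 genes passed in PyMT-M, 0 in AT3 and 2208L, and 3 in T11.

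Marker sums of some other cells differed between treatments, not in every model. Macrophage markers summed to 1395 to 1594 CPM in 2208L H3B-8800 libraries and 192 to 831 CPM with vehicle, and to 533 to 787 CPM against 122 to 356 CPM in PyMT-M. In AT3 the macrophage sums overlapped, at 741 and 650 CPM with H3B-8800 and 534 to 889 CPM with vehicle. B cell markers summed to 36.5 to 54.2 CPM in 2208L H3B-8800 libraries and 2.44 to 5.10 CPM with vehicle. In PyMT-M they overlapped, at 1.01 to 2.49 CPM with H3B-8800 and 0.729 to 3.04 CPM with vehicle. The cycling list ran from 256 to 721 CPM with H3B-8800 and from 477 to 918 CPM with vehicle in PyMT-M, ranges that overlap. It ran from 1314 to 1866 CPM against 1887 to 2084 CPM in 2208L. Their part in the levels was not tested.

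**Figure D3:**
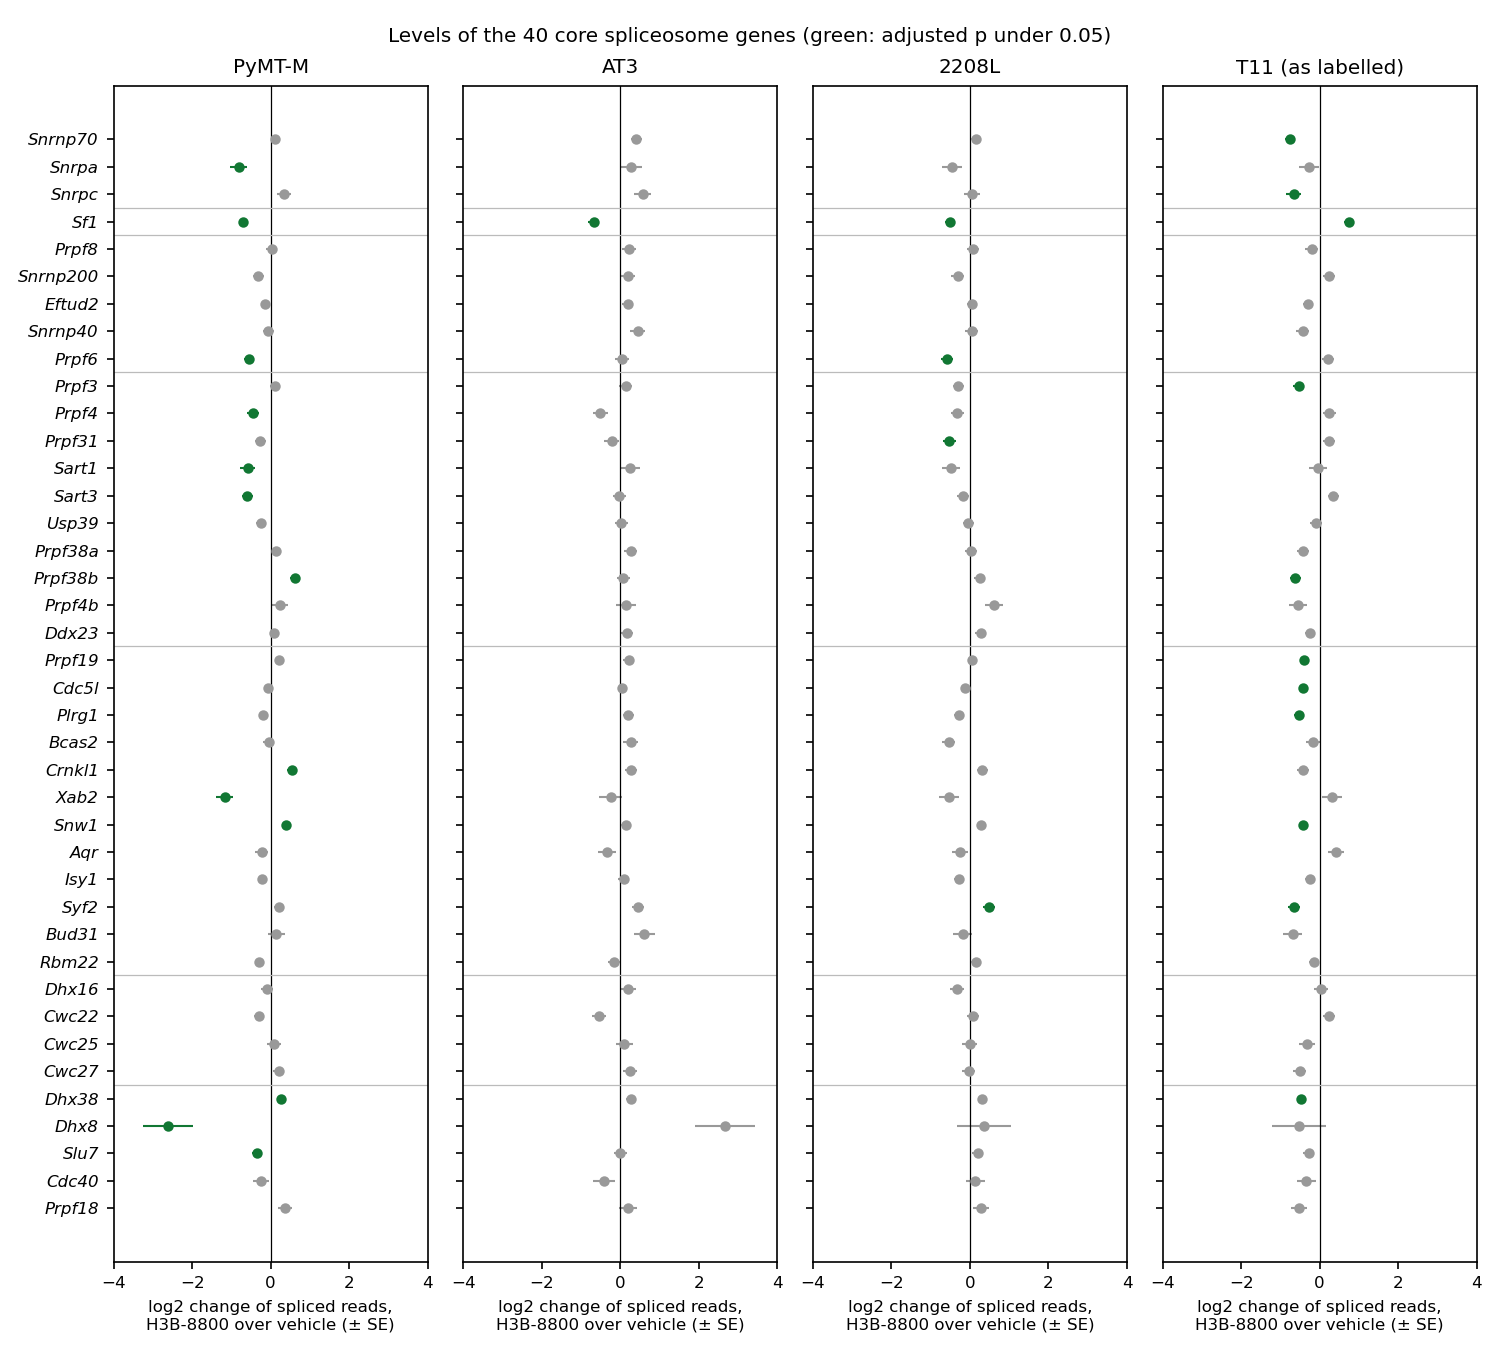
Log2 change in level, H3B-8800 over vehicle, with its standard error for the 40 genes in 4 models (T11 by label), grouped by role, with green points at an adjusted p under 0.05. Sf1 is lower in PyMT-M, AT3 and 2208L by 0.51 to 0.71 on the log2 scale, and higher in T11 libraries labelled H3B-8800.

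Sf1, whose product recognizes the branch point before SF3B is loaded, was the 1 gene that fell in all 3 models. Its level was 170, 156, 162 and 166 CPM in PyMT-M vehicle libraries and 114, 95.3, 94.2 and 97.9 CPM with H3B-8800. AT3 libraries had 202, 224 and 205 CPM against 109 and 155 CPM, and 2208L libraries 154, 173 and 165 CPM against 120, 122 and 104 CPM. No H3B-8800 library reached a vehicle library of its model. Sf1 fell by 0.71 ± 0.11 in PyMT-M (adjusted p = 0.000106), by 0.67 ± 0.14 in AT3 (adjusted p = 0.0451) and by 0.51 ± 0.13 in 2208L (adjusted p = 0.014). In T11 it was 227, 233 and 210 CPM in libraries labelled H3B-8800 and 145, 138 and 118 CPM in those labelled vehicle (0.74 ± 0.13, adjusted p = 0.000862). The AT3 call was lost without vehicle replicate 1, 2 or 3 or H3B-8800 replicate 1, and the 2208L call without vehicle replicate 3 or H3B-8800 replicate 3.

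Among the U1 genes, none changed in AT3 or 2208L. Snrpa fell in PyMT-M, from 74.5, 73.2, 69 and 139 CPM to 49.8, 47.9, 44.3 and 60.2 CPM, with every H3B-8800 library below every vehicle library (-0.82 ± 0.22, adjusted p = 0.0092). This call was lost without vehicle replicate 4. Snrnp70, the U1-70K protein, was 288, 325 and 307 CPM in T11 libraries labelled H3B-8800, below the 536, 536 and 492 CPM of those labelled vehicle (-0.76 ± 0.13, adjusted p = 0.00085). In PyMT-M it stood at 333, 253, 336 and 358 CPM with vehicle and at 312, 379, 334 and 362 CPM with H3B-8800, ranges that overlap. Snrpc was 136, 134 and 118 CPM in T11 libraries labelled H3B-8800, below the 249, 200 and 165 CPM of those labelled vehicle (-0.66 ± 0.20, adjusted p = 0.0325), a call lost without any 1 of the 6 T11 libraries except labelled vehicle replicate 3. In the mean over PyMT-M, AT3 and 2208L, Snrnp70 (0.22 ± 0.07, adjusted p = 0.0313) and Snrpc (0.32 ± 0.11, adjusted p = 0.0413) rose.

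Of the 5 U5 genes, only Prpf6 changed with the drug. Prpf6 encodes the bridge between the U5 and U4/U6 particles. It was 136, 138, 144 and 148 CPM in PyMT-M vehicle libraries and 102, 101, 94.4 and 87.9 CPM with H3B-8800 (-0.55 ± 0.13, adjusted p = 0.0042). In 2208L it went from 163, 144 and 187 CPM to 105, 121 and 101 CPM (-0.59 ± 0.15, adjusted p = 0.0175), a call lost without vehicle replicate 3 or H3B-8800 replicate 1 or 3. AT3 libraries overlapped, at 145, 143 and 163 CPM with vehicle and 170 and 140 CPM with H3B-8800 (0.05 ± 0.17, adjusted p = 0.971). The scaffold Prpf8, the GTPase Eftud2, the WD40 protein Snrnp40 and the helicase Snrnp200 did not pass in any model.

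The U4/U6 and tri-snRNP genes split. In PyMT-M Prpf38b rose, from 39.1, 33.5, 32.5 and 35.5 CPM to 58, 51.6, 54 and 52.8 CPM, with no overlap (0.62 ± 0.13, adjusted p = 0.00149). Sart3 fell from 55.2, 44.5, 45.3 and 46.3 CPM to 32.2, 34.1, 25.6 and 35.3 CPM, again with no overlap (-0.59 ± 0.13, adjusted p = 0.00225). Sart1 (-0.59 ± 0.20, adjusted p = 0.035) and Prpf4 (-0.45 ± 0.15, adjusted p = 0.0299) fell too, and the other 6 of 10 did not pass. Prpf31, which holds U4/U6 to U5, fell in 2208L from 125, 123 and 131 CPM to 76, 99.1 and 87.2 CPM (-0.53 ± 0.16, adjusted p = 0.0426). Leaving out any 1 of the 6 libraries except H3B-8800 replicate 2 lost that call. In PyMT-M Prpf31 was 83.3 to 107 CPM with vehicle and 72.6 to 82.7 CPM with H3B-8800 (-0.27 ± 0.14, adjusted p = 0.171). Prpf3, another U4/U6 protein, was 102, 98.1 and 95.8 CPM in T11 libraries labelled H3B-8800, below the 146, 153 and 129 CPM of those labelled vehicle (-0.53 ± 0.14, adjusted p = 0.0201), a call lost without labelled vehicle replicate 2 or labelled H3B-8800 replicate 2 or 3.

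The mean over the 3 models other than T11 had 7 genes that rose and 7 that fell, where 10.7% of all genes rose and 13.2% fell. Without the 6 libraries with muscle or B cell transcripts, 8 of these 40 genes passed. Those that rose were Snrnp70, Snrpc, Prpf38b, Crnkl1, Snw1, Syf2 and Dhx38, by 0.22 to 0.38 on the log2 scale. Sf1, Prpf6, Prpf31, Prpf4, Sart3, Xab2 and Cwc22 fell. Dhx38 was 101, 90.8, 99.5 and 87.8 CPM in PyMT-M vehicle libraries and 113, 117, 110 and 112 CPM with H3B-8800, and its mean change over the 3 models was 0.28 ± 0.06 (adjusted p = 0.00222).

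In the PRP19 complex and its partners, Xab2 had the largest fall. Its level was 88.1, 78.3, 79.6 and 120 CPM in PyMT-M vehicle libraries and 34, 50.5, 41 and 36.9 CPM with H3B-8800 (-1.17 ± 0.22, adjusted p = 0.00084). In 2208L it was 71.2, 69.9 and 77.4 CPM against 50.5, 53.5 and 47.8 CPM, without overlap but also without passing the test (-0.53 ± 0.26, adjusted p = 0.197). Crnkl1, a scaffold of the complex, rose in PyMT-M from 35.7, 42.9, 35 and 38.6 CPM to 47, 59.1, 56.8 and 58.4 CPM (0.54 ± 0.13, adjusted p = 0.00409). Snw1 rose there from 173, 178, 182 and 153 CPM to 243, 237, 222 and 195 CPM (0.39 ± 0.09, adjusted p = 0.00461). Neither gene's groups overlapped.

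Syf2, a small partner of the complex, rose in 2208L from 71, 64.9 and 60.7 CPM to 99.2, 86.1 and 88.6 CPM (0.48 ± 0.15, adjusted p = 0.044), and this call was lost whichever of the 6 libraries was left out. In PyMT-M Syf2 stood at 72.9 to 80 CPM with vehicle and 84.6 to 92.7 CPM with H3B-8800 (0.22 ± 0.13, adjusted p = 0.217). In T11 Syf2, Snw1, Cdc5l, Plrg1 and Prpf19 were lower in libraries labelled H3B-8800, Syf2 at 49.5, 51.5 and 49 CPM against 98.4, 74 and 62.7 CPM (-0.65 ± 0.15, adjusted p = 0.0081). None of the 4 genes of catalytic activation, the helicase Dhx16 and Cwc22, Cwc25 and Cwc27, passed in any model.

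Of the second-step genes, the helicase Dhx38 rose in PyMT-M (0.26 ± 0.09, adjusted p = 0.0431) and the 3′ splice site factor Slu7 fell (-0.35 ± 0.12, adjusted p = 0.0374). Dhx8, the helicase that releases the mRNA, cannot be read from its summed count. It was 876, 65.8, 147 and 667 CPM in PyMT-M vehicle libraries, 65.5, 86.6, 69.4 and 65.2 CPM with H3B-8800, and 71.8 and 959 CPM in the 2 AT3 H3B-8800 libraries. In the 3 highest libraries the same number of extra reads was counted as spliced at each of the 22 introns, 616 in PyMT-M vehicle replicate 1, 325 in vehicle replicate 4 and 414 in AT3 H3B-8800 replicate 2. Those same numbers stood at the neighbouring gene on the same strand, Arl4d, and not at Etv4, Vat1 or Brca1 on the other strand. With these reads subtracted, the PyMT-M change of -2.61 ± 0.63 (adjusted p = 0.0052) became 0.34 ± 0.16 (adjusted p = 0.122).

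The call of a different drug effect in PyMT-M and AT3, the 1 such call among the 40 genes against 1.1% of all genes, was also lost, from -5.28 ± 1.00 (adjusted p = 0.0151) to 0.25 (adjusted p = 0.677). The vehicle difference of PyMT-M from AT3 turned from 2.44 ± 0.70 (adjusted p = 0.00519) to -0.50 ± 0.17 (adjusted p = 0.0135). No level of Dhx8 is therefore read as changed with the drug.

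**Figure D4:**
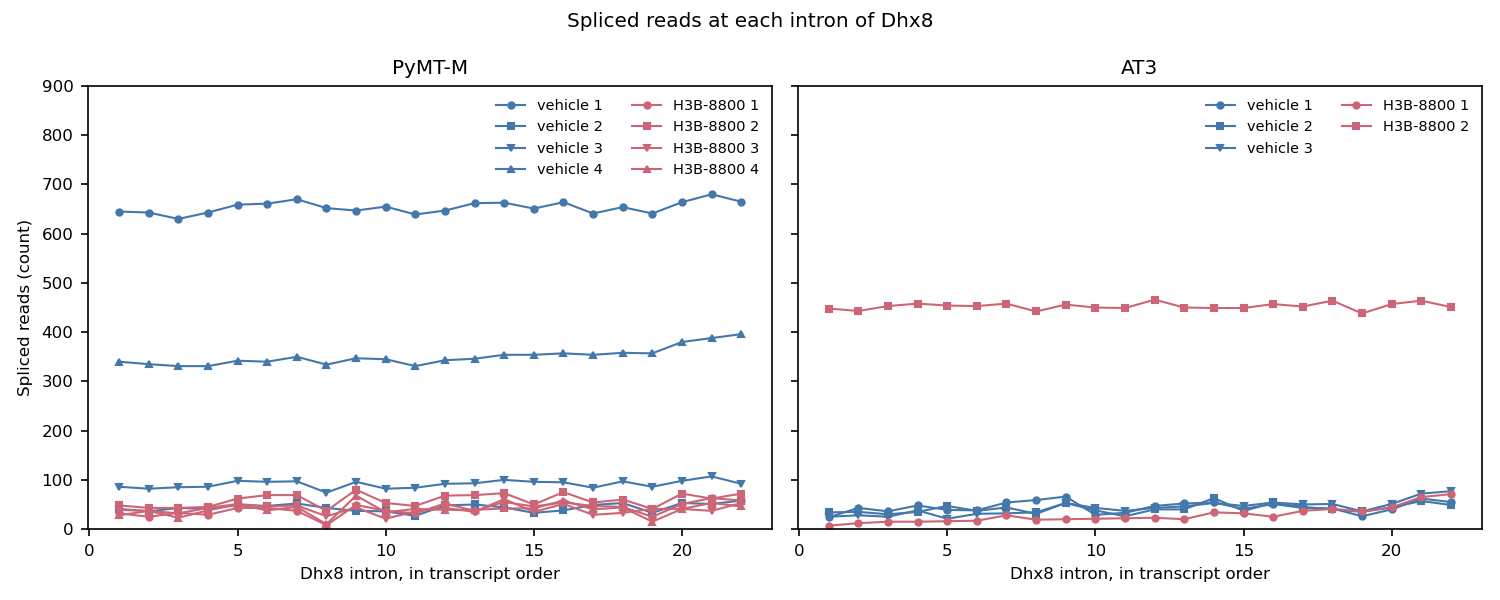
Dhx8 spliced reads at each of its 22 introns, in order, for the PyMT-M and AT3 libraries. Lines of PyMT-M vehicle replicates 1 and 4 and AT3 H3B-8800 replicate 2 lie above the others by a constant amount, 616, 325 and 414 reads.

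Set beside each other gene by gene, the change in share and the change in level were negatively related in PyMT-M. Over the 38 genes other than Dhx8 and Bud31, Pearson's r between the 2 was -0.67 in PyMT-M, -0.41 in AT3, -0.12 in 2208L and -0.49 in T11. Both measures use the spliced reads of the gene, and genes are not independent, so that r is a description with no test. With the level counted from all overlapping reads, r was 0.13, -0.11, 0.06 and -0.33. On that count 10 genes passed in PyMT-M, of which 5 were among the 13 called from spliced reads, Dhx8 being 1 of the 13. The calls for Xab2, Snrpa, Snw1 and Prpf38b were among those lost. The share of all genes that passed on that count was not taken, so no rate is read from the 10.

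**Figure D5:**
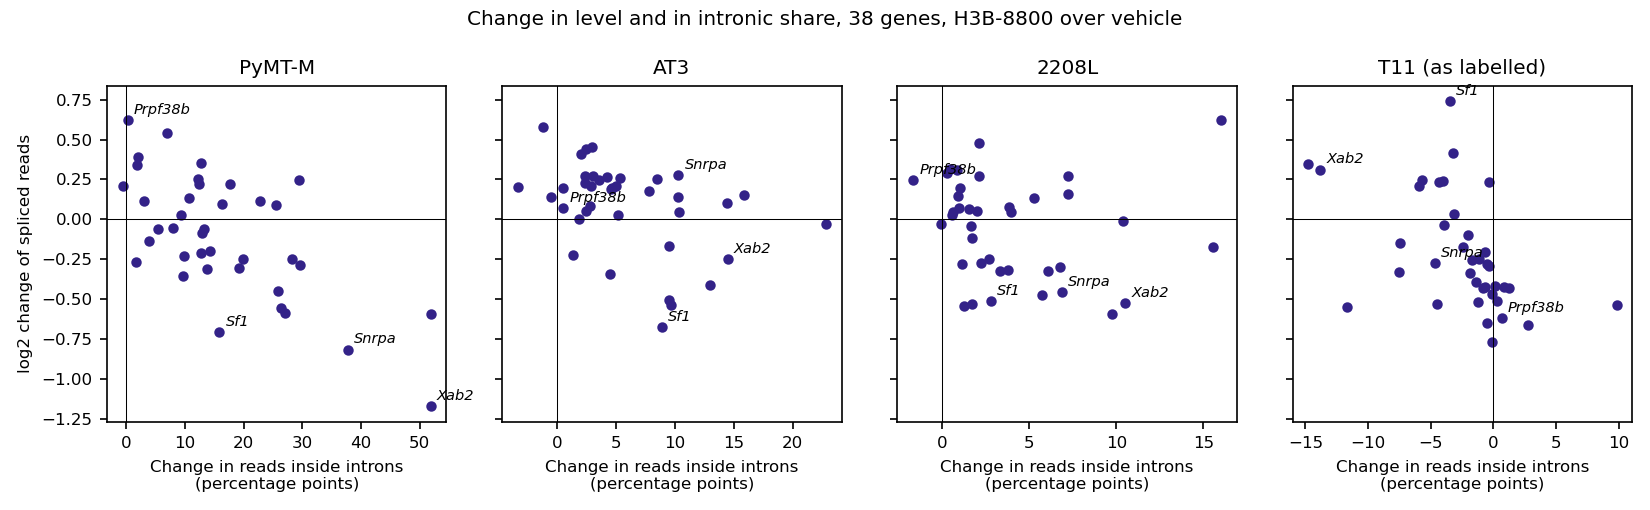
Change in percent of reads inside introns against the log2 change in level, for 38 genes in 4 models, 1 point a gene. In PyMT-M, Sart3 and Xab2 lie at the far right, with the largest rise in share, and below 0 in level.

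Vehicle libraries of different models were compared within each host strain. Of the 40 genes, 21 were lower and 1 higher in PyMT-M than in AT3, both grown in C57BL/6 mice, where 28% of all genes were lower and 32.1% higher, and the 1 higher was Dhx8, whose reads are described above. The members' median was -0.39 against 0.08 for all genes. Usp39 was 48.6, 52.3, 45.8 and 51.7 CPM in PyMT-M and 117, 113 and 148 CPM in AT3 (-1.34, adjusted p = 4.54e-08). Cdc40, a second-step factor, was 42.8, 39.7, 36.6 and 25.3 CPM against 91.6, 88.3 and 81.1 CPM (-1.27, adjusted p = 5.65e-05). Eftud2 was 163, 183, 164 and 178 CPM against 368, 356 and 399 CPM (-1.12, adjusted p = 5.98e-08). Groups did not overlap for these 3 genes. Cycling markers summed to 2233 to 2917 CPM over the AT3 libraries and 256 to 918 CPM over those of PyMT-M, and their part was not tested.

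Between the Balb/c models, 17 genes were lower and 2 higher in 2208L than in T11 libraries labelled vehicle, where 22.5% of all genes were lower and 23.1% higher. Prpf38b was 25.4, 32.7 and 30.4 CPM in 2208L and 71.3, 96.5 and 80.4 CPM in T11 (-1.49, adjusted p = 7.35e-08). Snrpc was 104, 72.6 and 86.5 CPM against 249, 200 and 165 CPM (-1.22, adjusted p = 3.47e-05), and Cdc5l 74.2, 70 and 73.3 CPM against 158, 146 and 134 CPM (-1.01, adjusted p = 1.93e-07). Prpf31 (0.42, adjusted p = 0.0366) and Prpf3 (0.37, adjusted p = 0.0379) were the 2 that were higher. Neither passed without T11 labelled vehicle replicate 3 or 2208L vehicle replicate 1 or 3, and Prpf31 was also lost without T11 labelled vehicle replicate 2 or 2208L vehicle replicate 2. Both were lost without the 6 libraries with muscle or B cell transcripts. Since the labels of T11 run opposite to retention, these differences are those of the libraries so labelled.

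Per intron, which makes levels comparable between genes of unequal number of introns, Snrnp70, Prpf19 and Bud31 were highest, with 57.9 CPM per intron for Snrnp70 in T11 libraries labelled vehicle, 40.8 for Prpf19 in AT3 vehicle libraries and 46.2 for Bud31 in 2208L vehicle libraries.

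Drug effects did not differ between PyMT-M and 2208L for any of the 40 genes (edgeR, 0 genes, 6 at an unadjusted p under 0.05, DESeq2 1 gene, with 1.92% of all genes called in either direction). T11 set against the mean of the other 3 models gave 8 genes higher and 18 lower, where 13.9% and 12.2% of all genes were. Sf1 differed by 1.37, Xab2 by 0.96, Syf2 by -1.03 and Snrnp70 by -0.99 on the log2 scale.

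Other spliceosome genes, from lists chosen by textbook membership, were counted beside the shares of all genes. In PyMT-M 5 of 21 U2 and SF3 genes rose and 3 fell, 2 of 14 Sm and Lsm genes fell and 0 rose, and 0 of 9 other tri-snRNP genes changed. Of all genes, 10.2% rose and 14.6% fell there, and 0.123% rose in AT3. Sf3b3, a subunit of the SF3B complex that H3B-8800 binds, was the 1 gene of these lists that rose in AT3 (0.88, adjusted p = 0.0077), and it rose by 0.82 in 2208L. Zrsr2, a minor spliceosome factor, rose by 0.64 in PyMT-M and 0.78 in 2208L, and U2surp fell there by 1.08 and 0.78.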

How the data were processed

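Each deposited file lists introns with counts of reads inside the intron, counts of reads that overlap it and the authors' RPKM of intronic reads, per the values in the files, which carry no header. The authors' deposited RPKM were not used. HISAT2 2.0.4 is the aligner, and mm10 and hg38 are the builds, named per the submitters' processing notes. Tool and annotation release behind the counts: not given in the sources used here. Coordinates matched introns of GENCODE M21 for 99.874% of rows. Introns are treated as holding an annotated exon where any base of one overlaps them, from any gene and on either strand. This includes exons that run across the whole intron.

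From the deposited counts, spliced reads were taken as overlapping minus inside reads and summed per gene. Genes with at least 1 CPM in at least 2 libraries (13001) were fitted with edgeR 4.0.16 (R 4.3.3, TMM scaling, robust quasi-likelihood test, 8 groups over all 25 libraries), with Benjamini-Hochberg adjustment over all genes and a threshold of 0.05. Introns with a mean of at least 5 inside and 10 spliced reads (52042) had the same fit, offset by log spliced reads of their gene. Shares per library were compared by exact permutation tests. The fits were tested on simulated data. Alternatives used DESeq2 1.42.0, limma 3.58.1, other counts, filters and libraries left out. Replicate tumors are biological replicates per the design text. Where no read was inside, the limit given is 3 reads of the total, which covers counting error only, as do all shares of single libraries, since reads carry no molecular identifiers.

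The genes and all lists were chosen with earlier results of these data known. Genes given in every library are those that passed in at least 2 of PyMT-M, AT3 and 2208L, in a tested difference of drug effects, or among the 3 largest changes in either direction of a comparison. Introns named are up to 10 without an annotated exon that rose in all 3 models, by mean log2 change, and up to 6 that fell in at least 2, of which there were none. The introns and exons printed as sequence, Prpf38b 4, Prpf4b 12, Snrnp70 7 and Cwc27 10, and genes added for their role were chosen after their values were seen. Sequences came from GENCODE M21 transcripts (GRCm38).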

Additional observations from a re-analysis of the deposited data

Results flagged for a closer look

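In groups of 4 libraries, the highest or lowest library was tested with Dixon's ratio (critical value 0.829), and 11 of 102 tests passed. Chance gives about 1 in 20 for normally spread values, which shares held at 0% are not. PyMT-M vehicle replicate 4 was far from the other 3 vehicle libraries for Snrpa at 139 CPM, Snrpc at 85.3 CPM, Sart1 at 190 CPM, Cdc5l at 60.9 CPM and Dhx16 at 146 CPM, and for Dhx16 intron 1, with 40% of reads inside. PyMT-M vehicle replicate 1 stood apart for Prpf4 intron 8 at 3.17% and Usp39 intron 8 at 2.7%, where the other 3 had 0%. For these introns and Dhx16 intron 1, the 3 values of 0% make the ratio pass whatever the other value is. The count of 11 can therefore not be set against 1 in 20. PyMT-M H3B-8800 replicate 1 stood apart for the pooled share, 25.7%, and for Sart3 intron 11, 77.7%, and replicate 3 for Prpf4 intron 8, 37.8%.

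Drug effects differed between models by a test of the difference for Dhx8, PyMT-M minus AT3, by -5.28 on the log2 scale, a value lost once the reads shared with its neighbours were subtracted. T11 by label minus the mean of PyMT-M, AT3 and 2208L differed for 26 genes. The difference was higher for Sf1 (1.37), Xab2 (0.96), Aqr (0.69), Prpf4 (0.67), Sart3 (0.61), Prpf6 (0.58), Prpf31 (0.57) and Cwc22 (0.50). It was lower for Syf2 (-1.03), Snrnp70 (-0.99), Snrpc (-0.98), Prpf38b (-0.93), Prpf4b (-0.89), Bud31 (-0.87), Prpf18 (-0.81), Crnkl1 (-0.80), Dhx38 (-0.74), Snw1 (-0.69), Cwc27 (-0.65), Snrnp40 (-0.57), Prpf38a (-0.57), Prpf19 (-0.56), Prpf3 (-0.52), Ddx23 (-0.43), Plrg1 (-0.43) and Cdc5l (-0.38). For the introns named in the report the same difference was -12.45 for Xab2 4, -9.37 for Xab2 7, -8.96 for Dhx16 1, -8.61 for Sart1 16, -8.25 for Prpf8 1, -7.99 for Usp39 8, -7.89 for Prpf4 8, -6.95 for Prpf4b 14, -5.89 for Sart3 11 and -4.89 for Prpf19 5. Fitted log2 values of introns with 0 reads inside in a group depend on the prior count and are no measure of size.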

How the results depend on the processing

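Counts of genes past the threshold depended on the settings, the cause was not tested, and with few calls small shifts pass the 1.5-fold limit. For T11 by label, 11 genes became 5 with medians over introns, 2 with overlapping reads, 0 with only the compared models fitted (13 at an unadjusted p under 0.05) and 3 without the 6 libraries with muscle or B cell transcripts, which left 6 of 13 in PyMT-M. AT3 had 1 gene, against 2 with DESeq2 and 0 with medians, upper quartiles, only its own model fitted or those libraries left out. 2208L had 4, against 8 with DESeq2, 2 with no filter on low counts, 11 with only its own model, 7 without T11 libraries and 0 without those libraries. The drug difference of PyMT-M from 2208L had 0, against 1 with DESeq2 or overlapping reads, and that from AT3 had 1, against 0 with only these models, without those libraries or with Dhx8 corrected. A fit on introns without an annotated exon alone, with fewer introns tested, gave 32 calls in T11, 116 in PyMT-M, 41 in AT3 and 37 in 2208L, against 52, 195, 66 and 69. Leaving out those libraries gave 15 introns in T11 and 13 in 2208L. The 2208L share differed by 4.42 points as an unweighted mean over introns. Dhx8 reversed to 0.34 in PyMT-M, -0.50 between vehicle groups and 0.25 for the difference.

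Leaving out 1 library at a time gave 3 to 13 genes in T11, 9 to 13 in PyMT-M, 0 to 6 in AT3 and 0 to 3 in 2208L, 20 to 24 between PyMT-M and AT3 vehicle libraries and 16 to 21 between 2208L and T11, and 0 to 1 for each drug difference. Introns ran from 29 to 65, 177 to 206, 15 to 83 and 26 to 60 in T11, PyMT-M, AT3 and 2208L, and share differences from -3.10 to -1.17, 14.9 to 17.1, 3.48 to 5.65 and 2.79 to 3.58 points. Gene counts fell to 3 and 7 without T11 labelled H3B-8800 replicates 2 and 3. They fell to 0 without AT3 vehicle replicates 1, 2 or 3 or H3B-8800 replicate 1, and 2208L vehicle or H3B-8800 replicate 3. They were 6 without AT3 H3B-8800 replicate 2, 2 without 2208L vehicle replicate 1 and 1 without 2208L H3B-8800 replicate 1. Intron counts were 31, 33 and 29 without T11 labelled vehicle 2, H3B-8800 1 and H3B-8800 2. They were 28 and 31 without AT3 vehicle 1 and 3, and 39 without 2208L H3B-8800 1.

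With the replicate number as a block, 8 genes passed in T11, 9 in PyMT-M, 0 in AT3, 1 in 2208L, 0 for both drug differences and 10 of 14 for the mean over the 3 models, and 40, 191, 19 and 58 introns in T11, PyMT-M, AT3 and 2208L. Same-numbered libraries did not deviate together in all pairs (correlations from -0.395 to 0.483), so the numbers were not taken as pairs. The block was not run between models.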
